A study of Homo sapiens with 6 samples.

Results

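The 51 genes described here encode proteins of the cytosolic ribosome, 31 of the large subunit and 20 of the small subunit. They were taken by symbol from a list of ribosomal protein genes and are 51 of the 28058 genes in the deposited expression table, in which each of them has 1 entry. All 51 passed the filter on low values. RNA was sequenced from the human breast adenocarcinoma line MDA-MB-231, in 3 libraries of cells expressing a short hairpin RNA against HSF1 (shHSF1) and 3 libraries of cells expressing a control hairpin (shCTL). All were grown in DMEM with serum at 21% O2, and the labels name no other treatment. The column headers of the table carry the tags TGL and cl, the second beside the replicate number, and no source used here says what either stands for. HSF1 is the transcription factor of the heat shock response, and the comparison asks how RNA levels differed when it was lowered. The labels do not say whether replicates were separate cultures, so a p-value here covers the spread between libraries, which could be technical only. In bulk RNA, fewer cells with a transcript and less of it per cell cannot be told apart.

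A ribosome reads mRNA on its small subunit and joins amino acids on its large subunit. Nearly every ribosomal protein is needed in a single copy per ribosome, and the RNAs that encode them are among the most abundant of a growing cell. In vertebrates these RNAs start with a C followed by a run of C or T (a 5' terminal oligopyrimidine, or TOP, tract), by which the kinase mTORC1, acting through proteins such as LARP1, sets how strongly they are translated.

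Most, but not all, of the members with a listed start have this tract at such a start. The start is shown here for members with changed levels and for members with central roles. Each line gives 15 bases before and 15 bases from a transcription start listed by RefSeq on GRCh38.p14, 5' to 3' on the gene's own strand, with the tract in capitals where a C at the start is followed by at least 4 bases that are each C or T. Lines with no capitals have no such run that begins at the listed start, or, as for RPL3, a shorter one. In RPL4 and RPL9 a run of C and T lies a few bases past the start, which this rule does not count.
RPLP1, chr15:69452803-69452832, plus strand: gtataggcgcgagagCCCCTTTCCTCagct
RPLP2, chr11:809952-809981, plus strand: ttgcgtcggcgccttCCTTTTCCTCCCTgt
RPLP0, chr12:120201097-120201126, minus strand: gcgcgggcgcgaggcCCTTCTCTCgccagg
RPS25, chr11:119018329-119018358, minus strand: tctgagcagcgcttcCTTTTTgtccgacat
RPS6, chr9:19380222-19380251, minus strand: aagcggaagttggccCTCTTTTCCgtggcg
RPS19, chr19:41860240-41860269, plus strand: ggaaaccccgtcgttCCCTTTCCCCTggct
RPL4, chr15:66504841-66504870, minus strand: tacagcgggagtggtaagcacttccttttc
RPL9, chr4:39458908-39458937, minus strand: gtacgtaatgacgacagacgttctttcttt
RPL3, chr22:39319609-39319638, minus strand: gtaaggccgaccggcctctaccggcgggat

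Starts were matched for 43 members, and in 30 of them (69.8%) at least 1 listed start had a C followed by 4 or more C or T. The same held for 19 of 26 other cytosolic ribosomal protein genes (73.1%), for 13 of 38 translation factor genes (34.2%) and for 1404 of 27305 genes with a listed start (5.14%). Among tested genes with a listed start it held for 702 of 9359 (7.5%). The 30 members with such a start had a median log2 fold change (shHSF1 over shCTL) of -0.08, and the 13 without one had -0.15. Of the 7 members past the limma threshold, RPLP1 and RPS25 have the tract at a listed start. RPL4, RPL9 and RPL15 have none that begins at a listed start, and RPL8 and RPL37 were not matched. A run that begins a few bases from the listed start was not counted, so a member counted as without a tract may still have it. Pairs of the pentamer that HSF1 binds, GAANNTTC or TTCNNGAA, searched on both strands from 250 bases before to 50 bases after the listed starts, were found in 8 of the 43 members (18.6%), against 16.2% of all genes with a start. Among tested genes with a start the share was 13.7%. Of those 8 members 0 passed the limma threshold (33.8% of all tested genes did), while RPL6 and RPS19 passed with the replicate block described below (48.3% of all tested genes). The triple form GAANNTTCNNGAA or TTCNNGAANNTTC, which overlaps the paired form, was in 0 of the 43 members. It was in 0.608% of all genes with a start and in 0.47% of the tested ones. These matches describe letters in a window and not binding.

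The libraries held 42615678, 38705161 and 33988307 reads assigned to genes in shHSF1 and 70449758, 39090930 and 36737836 in shCTL. HSF1 itself was at 5.01, 4.70 and 3.84 RPKM (assigned reads scaled by gene length and library total) in shHSF1 and at 61.2, 53.3 and 47.9 RPKM in shCTL. The log2 fold change of HSF1 came to -3.44 (SE 0.123), with a limma adjusted p of 3.78e-06, and an exact two-sided permutation test gave p = 0.1, the smallest that 3 against 3 libraries allow. Of the markers of the line, VIM lay at 1995 to 2209 RPKM in shHSF1 and at 1891 to 1912 RPKM in shCTL, and ESR1, PGR and CDH1 at 0.161 RPKM or less in every library. Among epithelial markers KRT18 lay at 171 to 224 RPKM in shHSF1 and 263 to 305 RPKM in shCTL, KRT8 at 104 to 122 RPKM in shHSF1 and 103 to 114 RPKM in shCTL, and EPCAM at 7.05 to 10.05 RPKM in shHSF1 and 4.48 to 4.74 RPKM in shCTL. The blood cell markers PTPRC and CD3E were at 0.0778 RPKM or less, whereas CD68, a lysosomal protein best known from macrophages, was at 68.4 to 103 RPKM.

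Ribosomal protein RNAs as a whole were slightly lower in each shHSF1 library than in the shCTL library of the same number. The 51 members took 2.54%, 2.35% and 2.19% of the assigned reads in the shHSF1 libraries and 2.62%, 2.36% and 2.43% in the shCTL libraries, and the groups overlap. The median member stood at 481, 449 and 389 RPKM in shHSF1, against 526, 463 and 448 RPKM in shCTL. The median log2 fold change of the 51 members was -0.10, against 0.04 over the 12433 genes tested. Over the 929 tested genes at or above the level of the lowest member it was 0.0007. Of the members, 39 of 51 (76.5%) lay below 0, against 44.6% of all tested genes. The pooled spread of the members' library medians within groups was 0.140 on the log2 scale. This was larger than the members' median change, although same-numbered libraries all differed in 1 direction. A pseudocount of 0.5 RPKM was added before logs were taken, for every log2 fold change given here.

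With limma and Benjamini-Hochberg adjustment over all tested genes, 3 members were higher in shHSF1 and 4 were lower at an adjusted p under 0.05, and 44 did not pass. Among all tested genes 17.7% were higher and 16.1% lower, 33.8% in all, so the 7 called members (13.7%) stand below the background share. The members that rose were RPLP1, RPL4 and RPL37, and those that fell were RPL9, RPL8, RPS25 and RPL15. RPL6 (adjusted p = 0.0542) and RPL3 (adjusted p = 0.0577) lay just outside the threshold, and RPL15 (adjusted p = 0.0308) was the called member nearest to it. Replicate numbers were found to pair the libraries, and with the number as a block in the fit 4 members were higher and 12 lower, against 26.2% higher and 22.1% lower of all tested genes (48.3% in all). The 9 members gained were RPL6, upward, and RPL3, RPL13, RPS28, RPL27, RPL29, RPS15, RPS16 and RPS19, downward. The log2 fold changes of these 8 falls lay between -0.35 and -0.17, but between -0.22 and -0.01 without shHSF1 3 and between -0.30 and -0.04 without shCTL 1. The fits that left out a library had no block and kept the library of the same number in the other group. They therefore do not show how the paired differences depend on a library. Groups did not overlap for 5 members higher and 8 lower in shHSF1, 13 of 51 in all, against 25.6% higher, 21.8% lower and 47.4% in all of the tested genes.

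**Figure D1:**
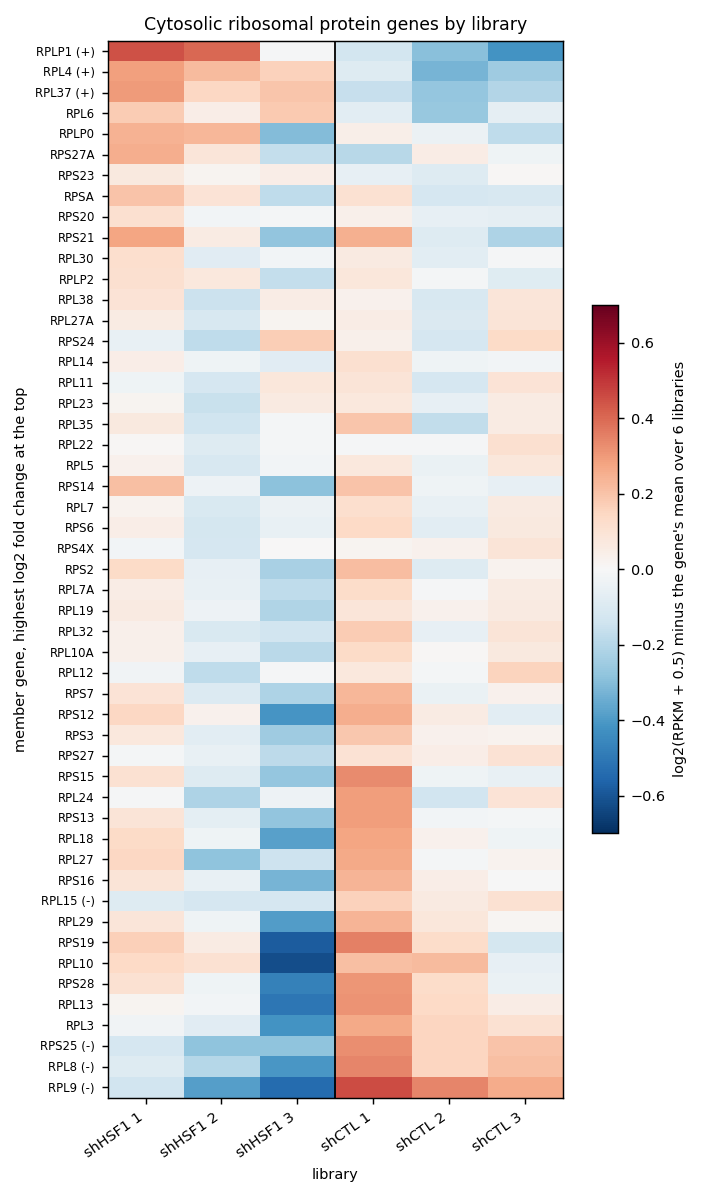
Each row is a member and each column a library, with shHSF1 libraries left of the line and shCTL libraries right of it. Colour is log2(RPKM + 0.5) minus the gene's mean over the 6 libraries, and (+) or (-) marks members called higher or lower in shHSF1. RPLP1, RPL4 and RPL37 at the top and RPL9, RPL8 and RPS25 at the bottom separate the groups, and many rows between them are darkest blue in shHSF1 3.

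The stalk of the large subunit, which recruits the GTPases of translation, held the member with the largest rise. RPLP1 (chromosome 15, 69452820 to 69455545, plus strand), an acidic stalk protein, was at 848, 824 and 619 RPKM in shHSF1 and at 569, 508 and 465 RPKM in shCTL. All 3 shHSF1 libraries stood above all 3 shCTL libraries, with shHSF1 3 closest to them. This was a log2 fold change of 0.56 (SE 0.140) with a limma adjusted p of 0.0178, and the call was lost when any one of shHSF1 1, shHSF1 2, shCTL 2 or shCTL 3 was left out (adjusted p up to 0.0710). RPLP2, with which RPLP1 forms a dimer, was at 471, 458 and 389 RPKM in shHSF1 and at 461, 432 and 411 RPKM in shCTL, so its groups overlap (log2 fold change 0.01, limma adjusted p = 0.939). RPLP0, the anchor of these dimers and the member with the highest level, was at 1131, 1123 and 775 RPKM in shHSF1, against 982, 927 and 844 RPKM in shCTL. Its shHSF1 libraries lay on both sides of the shCTL libraries (log2 fold change 0.12, limma adjusted p = 0.608). Within each library the ratio of RPLP1 to RPLP2 RNA was 1.80, 1.80 and 1.59 in shHSF1 and 1.23, 1.18 and 1.13 in shCTL. RPL12, at the base of the stalk, was at 789, 709 and 798 RPKM in shHSF1 and at 845, 796 and 895 RPKM in shCTL. RPL10A, of the mobile L1 stalk on the other side of the subunit, was at 732, 684 and 625 RPKM in shHSF1 and at 783, 718 and 746 RPKM in shCTL. Both had a log2 fold change of -0.14 that did not pass the test, and overlapping groups.

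Proteins around the peptidyl transferase centre and the exit tunnel moved in both directions. RPL4 (chromosome 15, 66499315 to 66504855, minus strand), a loop of which lines the tunnel, was at 877, 838 and 805 RPKM in shHSF1 and at 676, 574 and 607 RPKM in shCTL. The groups were apart by more than the range of either (log2 fold change 0.44, SE 0.0923, limma adjusted p = 0.00841). RPL8 (chromosome 8, 144789765 to 144792446, minus strand), which lies next to the catalytic rRNA, was at 742, 686 and 594 RPKM in shHSF1 and at 1000.4, 874 and 912 RPKM in shCTL. It was lower in all 3 shHSF1 libraries, with a log2 fold change of -0.47 (SE 0.109, limma adjusted p = 0.0133). RPL3, which reaches toward the same centre, was at 628, 605 and 478 RPKM in shHSF1 and at 768, 708 and 686 RPKM in shCTL. Its groups did not overlap either, but the limma test was not passed (log2 fold change -0.35, adjusted p = 0.0577; adjusted p = 0.00766 with the replicate block). The ratio of RPL4 to RPL3 RNA was 1.40, 1.39 and 1.69 in shHSF1, against 0.881, 0.811 and 0.884 in shCTL. RPL10, which joins the large subunit late in its assembly, was at 299.6, 292 and 176 RPKM in shHSF1 and at 314, 317 and 261 RPKM in shCTL, and RPL35, at the tunnel exit, had a log2 fold change of -0.05. Neither of them passed the test.

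Among the other large-subunit proteins, RPL9 had the largest fall of all members. RPL9 (chromosome 4, 39454125 to 39458948, minus strand) was at 291, 244 and 219.8 RPKM in shHSF1 and at 437, 404 and 382 RPKM in shCTL. Its mean was 252 ± 36.1 RPKM in shHSF1 and 408 ± 27.6 RPKM in shCTL (SD, n = 3 each), a log2 fold change of -0.70 (SE 0.114, limma adjusted p = 0.00285). The call was kept without any 1 of the 6 libraries (adjusted p up to 0.0143). RPL37 (chromosome 5, 40831328 to 40835285, minus strand), a zinc-binding protein, was at 206, 184 and 191 RPKM in shHSF1 and at 149, 138 and 145 RPKM in shCTL, and rose by a log2 fold change of 0.43 (SE 0.0734, limma adjusted p = 0.00367). RPL15 (chromosome 3, 23916545 to 23924631, plus strand) was at 113, 111 and 111 RPKM in shHSF1, against 135, 126 and 130.1 RPKM in shCTL. The libraries of each group lay close together, with SDs of 1.22 RPKM in shHSF1 and 4.44 RPKM in shCTL. The fall (log2 fold change -0.22, SE 0.0637, limma adjusted p = 0.0308) was lost as a call without shHSF1 1, shHSF1 2, shCTL 1 or shCTL 3 (adjusted p up to 0.114). RPL6 was at 651, 594 and 653 RPKM in shHSF1 and at 547, 479 and 551 RPKM in shCTL, with no overlap and a log2 fold change of 0.27 that missed the threshold. RPL13, the member with the lowest level in the table, was at 67.1, 65.1 and 46.3 RPKM in shHSF1 and at 82.1, 72.9 and 68.6 RPKM in shCTL (log2 fold change -0.34, limma adjusted p = 0.114). RPKM divides reads by the table's gene length, which is 4726 bases for RPL13 and 6440 bases for RPL15, the longest of all members.

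**Figure D2:**
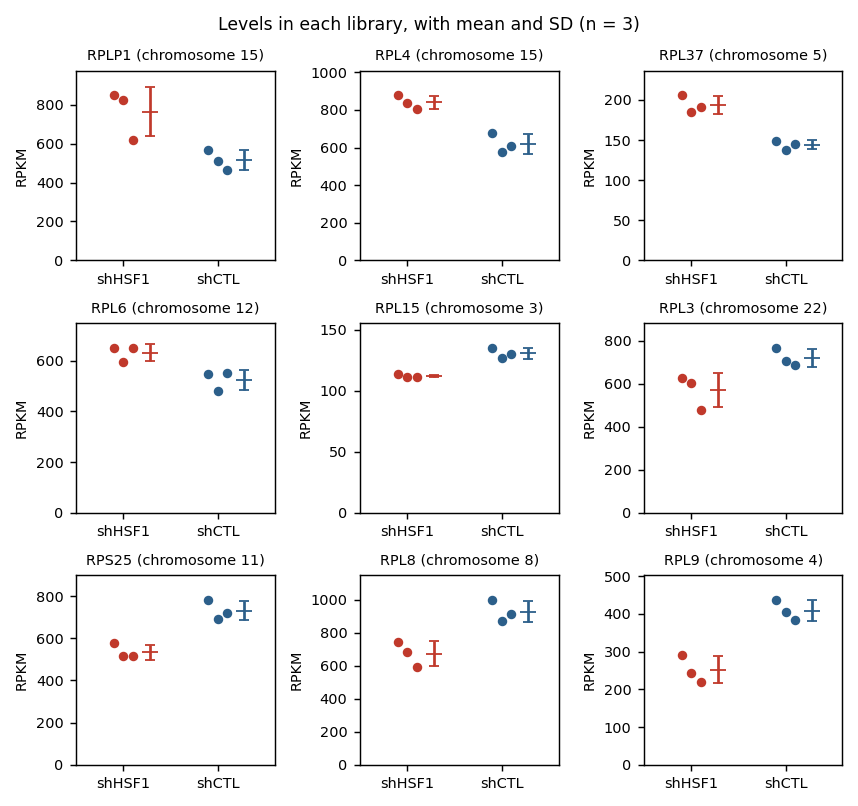
Points are the RPKM of single libraries, shHSF1 left in red and shCTL right in blue, with the mean and SD of 3 libraries beside them; every axis starts at 0. The 7 called members and the 2 just outside the threshold (RPL6 and RPL3) are drawn, and in each panel the groups do not overlap.

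The remaining large-subunit members fell short of the threshold. RPL5 and RPL11, which enter the ribosome together with 5S rRNA and, when free, bind the p53 regulator MDM2, were near their shCTL values. RPL5 was at 707, 641 and 684 RPKM in shHSF1 and at 731, 672 and 732 RPKM in shCTL (log2 fold change -0.07, limma adjusted p = 0.559), and RPL11 at 266, 249 and 286 RPKM in shHSF1 and at 289, 249.5 and 289 RPKM in shCTL (log2 fold change -0.05, limma adjusted p = 0.738). The ratio of RPL5 to RPL11 RNA lay between 2.39 and 2.66 in shHSF1 and between 2.53 and 2.69 in shCTL. RPL38, which in mice is needed for the translation of certain Hox mRNAs, was at 440.3, 372 and 428 RPKM in shHSF1 and at 422, 383 and 438 RPKM in shCTL (log2 fold change -0.00, SE 0.0962). RPL22, an RNA-binding protein of the outer surface and the member with the level next above that of RPL13, was at 101, 94.5 and 99.6 RPKM in shHSF1 and at 99.96, 99.8 and 109 RPKM in shCTL.

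In the small subunit, RPS25 was the called member. RPS25 (chromosome 11, 119015713 to 119018347, minus strand), a protein of the head that some viral internal ribosome entry sites need, was at 575, 514 and 514 RPKM in shHSF1 and at 782, 693 and 717 RPKM in shCTL. The lowest shCTL library stood above the highest shHSF1 library (log2 fold change -0.45, SE 0.0897, limma adjusted p = 0.00682), and the call was kept without any 1 of the 6 libraries (adjusted p up to 0.0341). The other 8 members of the head had log2 fold changes from -0.26 for RPS28 to 0.11 for RPS27A. RPS27A, made as a fusion with ubiquitin, was at 309.6, 275 and 231 RPKM in shHSF1 and at 227, 269 and 254 RPKM in shCTL, with overlapping groups. RPS19, the gene most often mutated in Diamond-Blackfan anaemia, was at 318, 295 and 189 RPKM in shHSF1 and at 361, 309.9 and 260.2 RPKM in shCTL (log2 fold change -0.24, limma adjusted p = 0.411, and adjusted p = 0.0453 with the replicate block). The difference was -0.0085 without shHSF1 3, in a fit without the block that kept shCTL 3, the lowest shCTL library for RPS19. RPS19 was lower in each shHSF1 library than in the shCTL library of the same number.

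None of the 11 members of the body and platform of the small subunit passed the limma test at an adjusted p under 0.05. Among all tested genes 33.8% did. At an unadjusted p under 0.05, for which no share of all tested genes was taken, 0 of the 11 passed. Their log2 fold changes lay between -0.17 and 0.09. RPS6, the protein that S6 kinase phosphorylates downstream of mTORC1, was at 761, 678 and 711 RPKM in shHSF1 and at 813, 700.2 and 774 RPKM in shCTL (log2 fold change -0.09, limma adjusted p = 0.518). RPS14, a platform protein, was at 426, 359.7 and 302 RPKM in shHSF1 and at 423, 361 and 354 RPKM in shCTL. RPS4X, the member with the level next below that of RPLP0, was at 823, 770.0 and 838 RPKM in shHSF1 and at 846, 853 and 889.6 RPKM in shCTL, without overlap but with a log2 fold change of -0.09. RPS23, a protein of the decoding site, was at 212, 205 and 209 RPKM in shHSF1 and at 194, 189 and 203 RPKM in shCTL, also without overlap (log2 fold change 0.09, limma adjusted p = 0.328). By subunit, the median log2 fold change was -0.09 over the 31 large-subunit members and -0.12 over the 20 small-subunit members.

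The called members lie mostly where their neighbours on the chromosome moved the same way. For each gene the median log2 fold change of the 40 nearest tested genes on its chromosome was taken, without the gene itself. It was 0.60 around both RPLP1 and RPL4 on chromosome 15, 0.41 around RPL37 on chromosome 5, -0.45 around RPL9 on chromosome 4, -0.29 around RPL8 on chromosome 8 and -0.19 around RPS25 on chromosome 11. It was 0.04 around RPL15. Beyond 0.25 in either direction the neighbour median was found at 5 members, all 5 of them called, and at 11.98% of all tested genes; the limit of 0.25 was chosen after these values were seen. Across the 51 members the change and the neighbour median had a Pearson correlation of 0.822 and a Spearman correlation of 0.522. These were 0.709 and 0.639 over the 31 other cytosolic ribosomal protein genes and 0.329 and 0.288 over 12429 tested genes. They describe genes that share the same 6 libraries. When the shHSF1 values were centred on these medians and the fit repeated, 0 members were higher and 2 were lower, RPL15 (adjusted p = 0.0204) and RPL7A (adjusted p = 0.0461), against 12.6% and 14.5% of all tested genes (27.1% in all). At an unadjusted p under 0.05, 0 members were higher and 12 lower in the centred fit, and 4 higher and 5 lower without centring. The share of all tested genes past this unadjusted threshold was not taken, so these counts cannot be set against it. The medians came from these same 6 libraries, and their own error is not in the centred fit. What moved these stretches of chromosome was not tested, and the change of a member on them cannot be told apart from that of its neighbours.

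**Figure D3:**
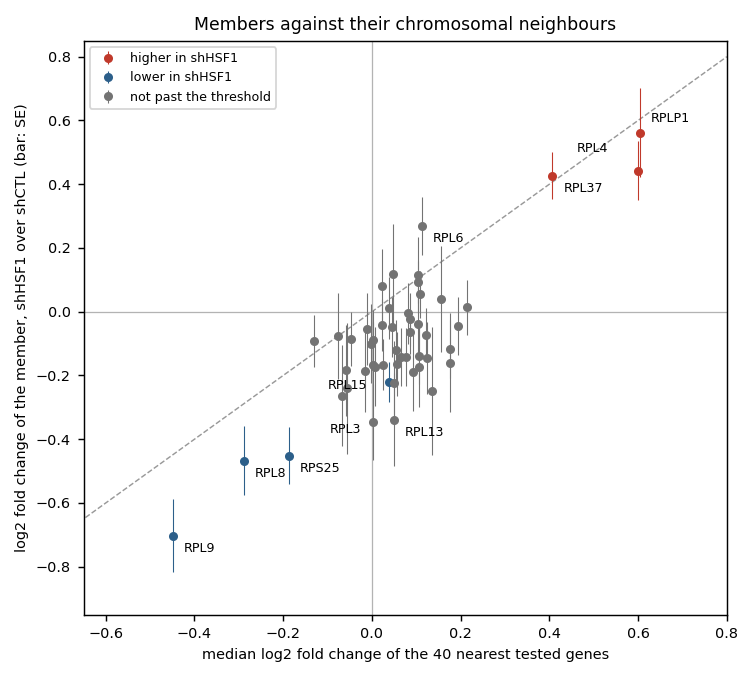
The vertical axis gives each member's log2 fold change with its SE, and the horizontal axis the median log2 fold change of the 40 nearest tested genes on its chromosome; the dashed line marks equal values. RPLP1, RPL4 and RPL37 lie at the upper right and RPL9, RPL8 and RPS25 at the lower left, and 44 of 51 members lie below the line. After centring on the neighbour medians, the median log2 fold change was -0.17 over the members and 0.0008 over all tested genes.

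The 4 members on chromosome 8 did not move together. RPL8, which like HSF1 lies near the end of the long arm, fell, whereas RPL7, RPL30 and RPS20 did not pass the test. RPL7, at 616, 562 and 589 RPKM in shHSF1 and 657, 585 and 634 RPKM in shCTL, had a log2 fold change of -0.09. RPL30, at 668, 584 and 609 RPKM in shHSF1 and 643, 587 and 612 RPKM in shCTL, had 0.01, and RPS20, at 201, 183 and 184 RPKM in shHSF1 and 191, 179 and 178 RPKM in shCTL, had 0.05. On chromosome 15 both members rose, but RPS27L, a relative of RPS27 that is not a member, was at 50.4, 48.1 and 43.5 RPKM in shHSF1 and at 50.7, 44.6 and 45.3 RPKM in shCTL. None of the 51 members is listed on an alternate contig in the table.

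Many members stood low in shHSF1 3. Within shHSF1, library 3 was the lowest of its group for 30 of 51 members, library 2 for 21 and library 1 for 0. Within shCTL, library 2 was the lowest for 31 members, library 3 for 18 and library 1 for 2. On the log2 scale the deviation from the group mean in shHSF1 3 was -0.50 for RPL10, -0.36 for RPLP0 and 0.19 for RPS24. The deviations of the members in shHSF1 3 and shCTL 3 were correlated across the 51 genes (Pearson 0.908). They also ran with the GC content of the members' transcripts, with a Pearson correlation of -0.535 in shHSF1 3 and -0.483 in shCTL 3, while over 11186 tested genes with a GC value it was -0.665 in shHSF1 3 and -0.468 in shCTL 3. Between the groups, the log2 fold change of the members had a Pearson correlation of -0.282 with GC content and 0.055 with level. These are descriptions across genes, which are not independent replicates. The part of GC content in the group difference was not tested. Without shHSF1 3 the counts were again 3 members higher and 4 lower, with a median of -0.07. Of the 12222 genes then tested, 2213 were higher and 1937 lower.

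**Figure D4:**
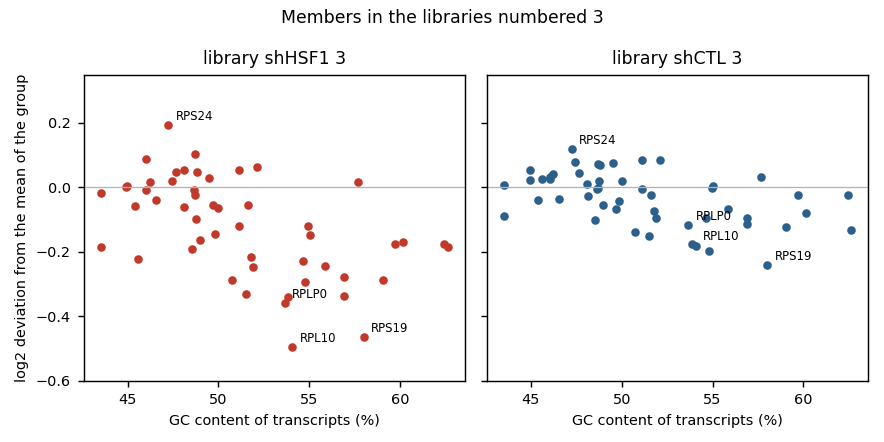
Each point is a member, placed by the GC content of its protein-coding transcripts in percent and by its log2 deviation from the mean of its group, in shHSF1 3 on the left and in shCTL 3 on the right. RPL10 and RPS19 lie lowest in shHSF1 3 and RPS24 highest.

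Other genes of the ribosome and of translation, from lists written for this work, give the setting. Among other cytosolic ribosomal protein genes, 31 of the 36 in the authors' table were tested. The median of their log2 fold changes was -0.15. With limma 8 fell, 0 rose and 23 did not pass, so that 25.8% were called against 33.8% of all tested genes. At an unadjusted p under 0.05, for which no share of all tested genes was taken, 2 were higher and 9 lower. With the replicate block 2 were higher and 14 lower, where 26.2% of all tested genes were higher and 22.1% lower. With windows centred 5 were lower (14.5% of all tested genes). Without shHSF1 2, shCTL 1 or shCTL 3, 5 were lower. Over all tested genes these lower counts were 1518 of 12187, 1727 of 12221 and 1211 of 12191. Without shHSF1 3, 2 were higher, against 2213 of 12222 tested genes. The largest falls were those of RPL34, a large-subunit protein, at 98.1, 90.4 and 80.4 RPKM in shHSF1 and 156, 139 and 142 RPKM in shCTL (log2 fold change -0.70), and of RPL37A (-0.68). RACK1, a signalling scaffold on the small subunit, fell by 0.64 and RPS3A by 0.58. The neighbour medians of these 4 lay between -0.47 and -0.27, and no call of theirs was kept with windows centred (adjusted p from 0.0698 to 0.256). RPL22L1, the paralogue of RPL22, also fell, at 27.95, 24.9 and 23.6 RPKM in shHSF1 and 38.8, 35.9 and 39.4 RPKM in shCTL, with a neighbour median of 0.06. RPS9 and RPS18 have further copies on alternate contigs, were listed at 0.533 RPKM or less in every library and were not tested.

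Mitochondrial ribosomal protein genes, whose products serve the separate ribosome of mitochondria, had 4 members higher and 12 lower of 77 tested, 20.8% in all against 33.8% of all tested genes. With the replicate block 9 were higher, with windows centred 1 was higher, and the lower count was 6 without shCTL 3 and 7 without shHSF1 2 or shCTL 1. Without shHSF1 3, 9 were higher. Over all tested genes, limma called 2195 higher and 2006 lower. Their higher count was 3257 with the block, 1570 with windows centred and 2213 without shHSF1 3. It was 1462 without shHSF1 1, 1250 without shHSF1 2, 1735 without shCTL 2 and 1356 without shCTL 3. The lower count over all tested genes was 1803 with windows centred, 1518 without shHSF1 2, 1727 without shCTL 1, 1400 without shCTL 2 and 1211 without shCTL 3. Leaving out a library left 12160 to 12222 genes tested. Among the mitochondrial genes, MRPS9 (log2 fold change -0.85) and MRPS17 (-0.72) fell most, and MRPS11 (0.73) and MRPS30 (0.59) rose most. Both rises lost their call with windows centred (MRPS11 adjusted p = 0.859, MRPS30 adjusted p = 0.0505), whereas both falls kept theirs. Among ribosome biogenesis genes 9 rose and 11 fell of 89 tested (22.5% called, against 33.8% of all tested genes). With the replicate block 14 rose and 21 fell, against 26.2% higher and 22.1% lower of all tested genes. With windows centred or without shCTL 2, 5 rose, and without shHSF1 2 or shCTL 3, 7 fell. In these settings the counts over all tested genes given above were lower too. DKC1, the pseudouridine synthase of rRNA, rose by 0.56, and POLR1B, a subunit of RNA polymerase I, fell by 0.64. Of 44 translation factors 5 rose and 7 fell (27.3% called, against 33.8% of all tested genes). Under the replicate block 11 were lower (22.1% of all tested genes), and with windows centred 1 was higher (12.6% of all tested genes). Without shHSF1 1 or shCTL 2 the higher count was 2 and without shHSF1 2 or shCTL 3 it was 1, and without shCTL 3 the lower count was 4. The counts over all tested genes given above also dropped in these settings. Those that fell include TPT1 (-0.61) and EEF1A1, the elongation factor that brings tRNAs to the ribosome, at 1709.8, 1676 and 1627 RPKM in shHSF1 and 2076, 2282 and 2359 RPKM in shCTL (-0.42; adjusted p = 0.0704 without shCTL 3). Among 18 regulators of mTORC1 and of TOP mRNAs 2 rose and 3 fell (27.8% called, against 33.8% of all tested genes). When windows were centred or shCTL 2 or shCTL 3 was left out, 1 was lower, and the lower count over all tested genes dropped as well. EIF4EBP2, a translation repressor that mTORC1 inactivates, rose the most, at 38.2, 37.2 and 35.8 RPKM in shHSF1 and 15.9, 13.99 and 14.8 RPKM in shCTL (log2 fold change 1.29, limma adjusted p = 3.35e-05). LARP1, which binds TOP tracts, fell to 62.6, 59.3 and 58.1 RPKM in shHSF1, against 98.9, 91.1 and 94.6 RPKM in shCTL (log2 fold change -0.66, limma adjusted p = 0.000377). MYC, a transcription factor that raises ribosomal protein genes in many cells, was at 46.1, 46.2 and 42.2 RPKM in shHSF1 and 52.6, 59.7 and 55.6 RPKM in shCTL (log2 fold change -0.32, limma adjusted p = 0.0157), and its call was lost with windows centred (adjusted p = 0.642) and without shCTL 2 or shCTL 3 (adjusted p up to 0.0610).

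**Figure D5:**
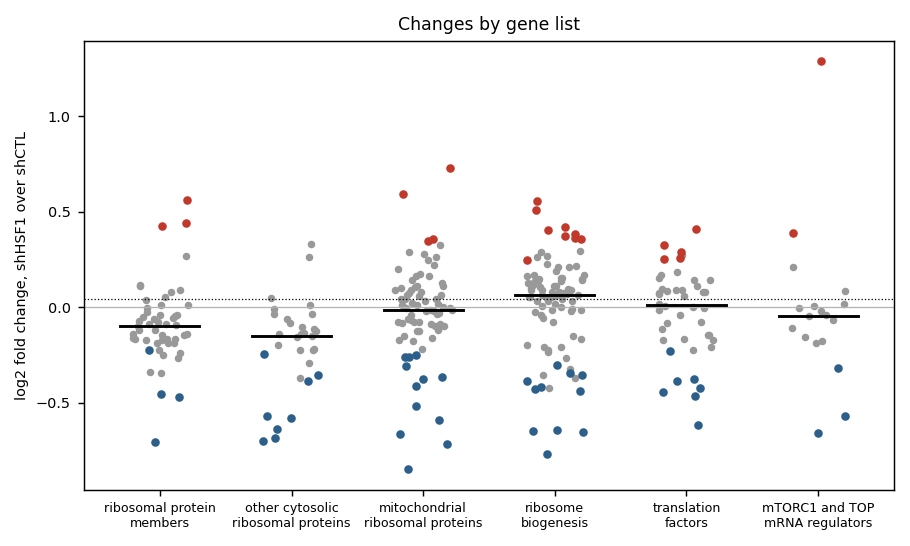
Points are tested genes of each list by log2 fold change (shHSF1 over shCTL), in red where called higher, blue where called lower and grey where not called; thick bars are list medians and the dotted line is the median of all 12433 tested genes. The members have a median of -0.10 and the other cytosolic ribosomal proteins -0.15, and the highest point is EIF4EBP2 at 1.29.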

How the data were processed

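The authors deposited 1 table of RPKM values for 28058 genes in 6 libraries. Per the labels' protocols, a Qiagen RNeasy kit gave the RNA and a KAPA kit for mRNA the libraries; per the submitters' processing notes, STAR, featureCounts and hg38 were used. Versions, strand setting and handling of multi-mapping reads: not given in the sources used here; ribosomal protein genes have many pseudogene copies, so the division of reads between a gene and its copies is uncertain. The control columns are named shScr and were taken as shCTL, matched by replicate number. RPKM times gene length in kilobases summed to 1000000 in each column and gave whole reads for 100% of values (tolerance 0.01). Each member had at least 3185 reads in every library.

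A filter of 0.5 RPKM in 3 or more libraries left 12433 genes. The deposited RPKM values were turned into log2(RPKM + 0.5) and fitted by limma 3.58.1 (R 4.3.3) with group as the one term and a mean-variance trend; p-values are two-sided and adjusted over all 12433 genes. The steps were run on simulated data with independent libraries and the same dispersion for every gene. The simulation had no shared effect of replicate number or GC content, so it does not show how the fit behaves with such effects. The whole reads entered an alternative fit with voom; other alternatives changed the filter, pseudocount, scaling, libraries or neighbours. Table gene lengths, in bases, are the authors' own. The members and lists were chosen with earlier results of these data known. Replicate numbers were taken to pair the libraries because same-numbered libraries deviated together (correlations 0.468, 0.307 and 0.451; headers write the number after cl, a tag that no source explains). GC content is that of GENCODE v29 protein-coding transcripts, found for all 51 members and 90.0% of tested genes. Values per library are given for HSF1, the 3 rises and 4 falls past the threshold, members on chromosomes 8 and 15, the 2 highest and 2 lowest members, and stalk, 5S and ubiquitin-fusion members; from each list up to 4 called genes per direction were eligible. Per-library values of RPL3, RPL6, RPL10, RPL38, RPS6, RPS14, RPS19, RPS23, RPS27L, RPL22L1 and RPL32P3 were chosen after their values were seen.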

Additional observations from a re-analysis of the deposited data

How the results depend on the processing

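Leaving out each library in turn gave 2 to 3 members higher and 3 to 4 lower, medians from -0.17 to -0.07, and HSF1 log2 fold changes from -3.53 to -3.34. These fits had no replicate block. Over all tested genes the higher count ran from 1250 of 12187 without shHSF1 2 to 2213 of 12222 without shHSF1 3. The lower count ran from 1211 of 12191 without shCTL 3 to 1937 of 12222 without shHSF1 3. With the replicate number as a block (paired fit), 12 members were lower in place of 4. The share of all tested genes called lower also rose, from 16.1% to 22.1%. Centring on windows gave 0 higher and 2 lower and turned the direction of RPL4 (log2 fold change -0.16) and RPLP1 (-0.0438); the other called members but RPL15 lost their calls. Without a filter on low values, RPL8 (limma adjusted p = 0.0626) and RPLP1 (0.0635) lost their calls, and without the mean-variance trend RPL15 did (0.0578). Pseudocounts of 0.1 and 1, a filter of 1 RPKM in every library, totals without ribosomal protein reads and leaving out genes with alternate contigs changed no member's call. RPL3 reached an adjusted p of 0.0405 with median scaling, 0.0440 with quantile normalization and 0.0317 with voom, and RPL6 reached 0.00784 with quantile normalization and 0.0302 with voom. The causes were not tested. The median of the members ranged from -0.17 to -0.04 over all settings. With 3 libraries a group, the smallest change called among members was that of RPL15 (-0.22), or that of RPS15 (-0.17) with the replicate block.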

Other observations

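The table lists 13 pseudogenes named after members, such as RPL32P3 and RPSAP58. Together their reads came to 0.138%, 0.147% and 0.0998% of the members' reads in the shHSF1 libraries and to 0.110%, 0.111% and 0.102% in the shCTL libraries. Of the 5 that were tested with limma, 0 passed at an adjusted p under 0.05, against 33.8% of all tested genes. At an unadjusted p under 0.05, for which no share of all tested genes was taken, 1 passed, RPL32P3. With the replicate block 2 of the 5 were higher, against 26.2% of all tested genes. RPL32P3 was at 1.44, 1.96 and 1.29 RPKM in shHSF1 and at 0.676, 1.19 and 1.03 RPKM in shCTL (limma adjusted p = 0.0678). RPSAP58, the highest of them, was at 4.64, 4.46 and 2.54 RPKM in shHSF1 and at 4.15, 3.47 and 3.22 RPKM in shCTL.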
